A study of Mus musculus with 3 samples.

Results

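The epidermal differentiation complex is a stretch of mouse chromosome 3 in which gene families of the skin barrier lie side by side. Its members were taken by position, as all gene rows that start between Npr1 and Tdpoz1 on chromosome 3 of build mm9, those 2 included. MicroRNA and solute carrier genes were left out, which gave 71 of the 21881 rows of the tables. Grouped by family after the listed symbol, 14 were S100 genes, 6 fused S100 genes, 17 late cornified envelope (Lce) genes and 15 small proline-rich (Sprr) genes. A further 9 were other envelope genes, and 10 were neighbours with symbols of other kinds. The first row was Npr1, which starts at 90254514, and the last was Tdpoz1, which ends at 93480205, a span of 3.23 Mb. The RNA was that of skin from FVB mice, a common inbred strain, and the labels name no allele, treatment or sex. The 3 groups are embryos of day 18.5 (E18.5, called embryo), pups of day 3 after birth (P3, called newborn) and mice aged 10 weeks (called adult). Values listed in a row follow this order. For each gene an age has a single averaged value, made from 2 biological replicates according to the design text. No spread between animals could be computed, so no difference has a replicate check or a p-value. Filaggrin, Flg, was not analysed here.

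The outermost epidermis is a layer of dead, flattened keratinocytes that carry beneath the cell membrane the cornified envelope, a shell of proteins joined by transglutaminases. Involucrin forms an early scaffold, loricrin supplies most of the finished shell, Sprr proteins bridge between its components, and Lce proteins are added late. The fused S100 proteins join an S100-type calcium-binding start to long repeats and bind envelope and keratin filaments in epidermis or hair follicle, while the S100 proteins are small calcium sensors found in many cell types.

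The values are FPKM, read fragments scaled to transcript length and to the mapped total, so levels of different genes can be set side by side per length. Differences are given as log2 of (FPKM + 1) at the later age minus the same at the earlier age, and only genes that differ by 1 or more on this scale, a 2-fold step, are called higher or lower. Of the 71 members, 59 reached 1 FPKM at 1 or more ages and 12 did not. Zeros that the authors' status column marks as failed, or as loci with too many fragments, are missing values, and 4 of them, all of the latter kind, fell on members: Hrnr at E18.5, and Flg2, Hrnr and Tchh at P3. The number of reads behind each value is unknown, so low values are imprecise to an extent that cannot be stated.

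The complex was at its highest in the newborn. Of 56 members compared, 41 were higher in the newborn than in the embryo, against 9.56% of all 14653 genes compared, and 4 were lower, against 9.42%. The median difference of these members was 1.46, beside 0.03 over all genes. From P3 to 10 weeks 38 of 56 members were lower, against 9.98% of all 14655 genes, and 6 were higher, against 19.8%, with a median of -1.95 beside 0.14 over all genes. Between E18.5 and 10 weeks 19 of 58 members were lower, against 6.92% of 14659 genes, and 11 were higher, against 16.1%, with a median of -0.06 beside 0.22. The summed FPKM of the 68 members measured at all 3 ages was 7469 in the embryo, 24254 in the newborn and 7630 in the adult, which is 1.28%, 4.02% and 1.18% of the summed FPKM of all genes measured at all ages. In bulk skin, fewer cells of a type and less RNA per cell cannot be told apart.

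**Figure D1:**
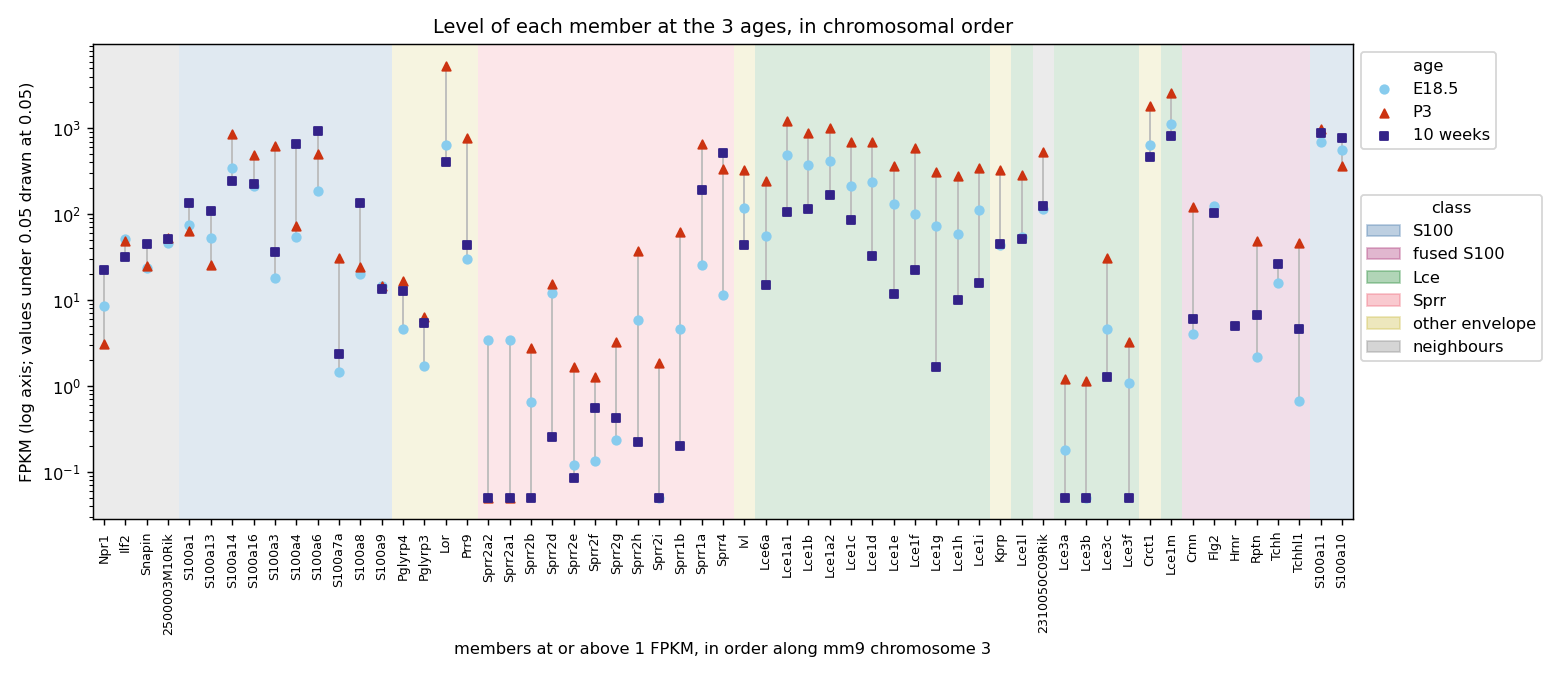
FPKM on a log axis of the 59 members that reached 1 FPKM, in order along the chromosome, with 1 point per age (circle E18.5, triangle P3, square 10 weeks) and the class of each gene as background colour. The triangles stand on top across the Lce block, whereas the S100 genes at both ends of the region include several whose highest value is the square. Flg2, Hrnr and Tchh lack points at ages where the locus is marked as having too many fragments.

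Where along the region a gene lay went with its class. A first S100 block from S100a1 to S100a9 is followed, after a stretch with few genes (924 kb between 9130204L05Rik and Pglyrp3), by Lor and Prr9, then the Sprr block (92019757 to 92304415), involucrin, the Lce block (92424007 to 92822982), the fused S100 block (92948709 to 93275902), and S100a11 and S100a10. P3 was the age of highest FPKM for all 17 Lce genes, for all 7 other envelope genes that reached 1 FPKM, for 9 of 12 Sprr genes and for the 3 fused S100 genes with values at all ages. Of 12 S100 genes it was P3 for 6 and 10 weeks for the other 6. Taking the fused S100, Lce, Sprr and other envelope classes as 1 group, 35 of 39 compared members were higher in the newborn than in the embryo (median 1.60). At 10 weeks 33 of 39 were lower than at P3 while 0 were higher (median -2.81). Over all genes compared, 9.56% were higher and 9.42% lower from E18.5 to P3, and 19.8% and 9.98% from P3 to 10 weeks. These shares also apply to the counts of single classes below.

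**Figure D2:**
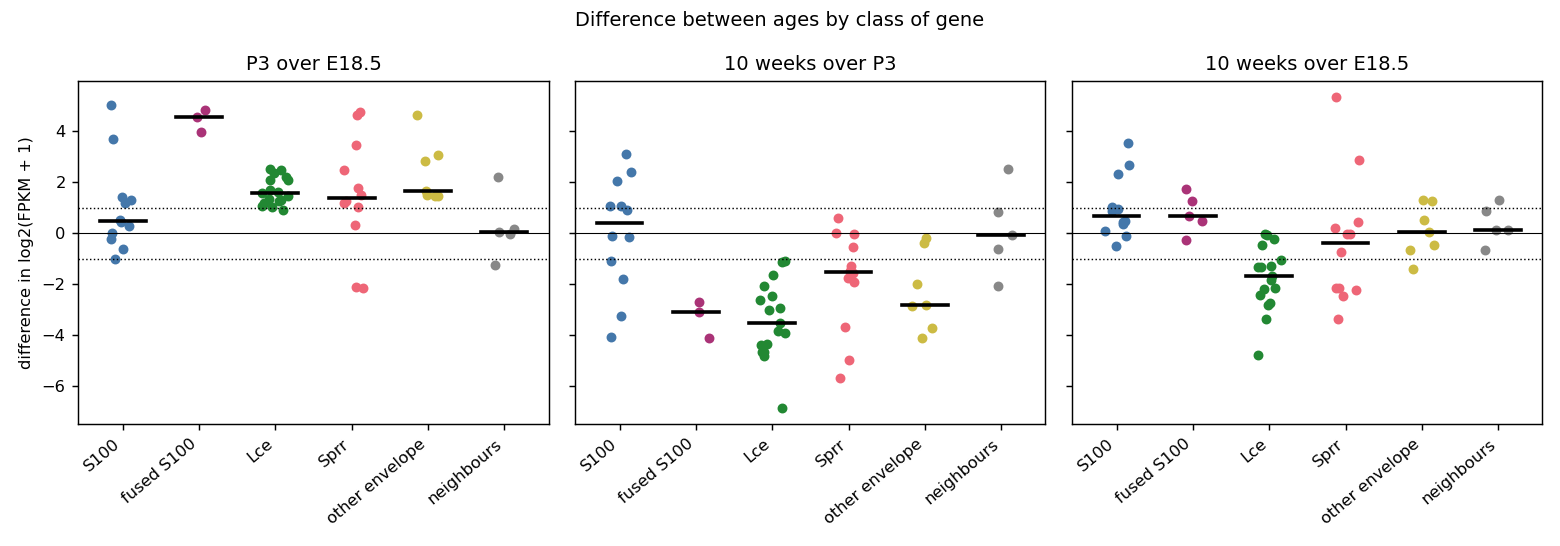
Difference in log2(FPKM + 1) of each compared member, by class, for the 3 pairs of ages. Each point is 1 gene, the bar is the class median and the dotted lines mark the 2-fold threshold. Lce points lie near or above the upper line in the first panel and below the lower line in the second, whereas the S100 points spread to both sides.

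Promoters were read for the members because many of them differed between ages in the same direction. The RefSeq promoter table (build GRCm38.p6, 250 bases before to 50 after each start) held 58 of the 71 members. The AP-1 motif TGANTCA, which reads the same on both strands and is the site of Jun and Fos proteins, was present in 19 of the 58 (32.8%), against 8.97% of all 27025 genes in the table. It was present in 9 of 13 Sprr, 4 of 6 fused S100 and 3 of 5 other envelope genes, in 2 of 11 S100 genes, and in 0 of 16 Lce genes. The TATA box TATAAA on the gene's strand, lying wholly between 40 and 15 bases before the start, was present in 20 of 58 members (34.5%) against 2.41% of all genes, with 9 of 13 Sprr genes and 2 of 16 Lce genes. The grainyhead core AACNNGTT, on either strand, was present in 3 of 58 members (5.17%) and in 4.77% of all genes. A gene with several listed starts counts once, if any of its windows holds the letters. The 120 bases before the start are printed for 7 genes that differ in their course between ages, with TGANTCA and TATAAA in capitals.
Lor (chr3:92083143-92083262, minus strand): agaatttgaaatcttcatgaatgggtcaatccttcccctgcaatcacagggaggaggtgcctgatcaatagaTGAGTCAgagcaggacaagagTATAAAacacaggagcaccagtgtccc
Sprr1a (chr3:92485882-92486001, minus strand): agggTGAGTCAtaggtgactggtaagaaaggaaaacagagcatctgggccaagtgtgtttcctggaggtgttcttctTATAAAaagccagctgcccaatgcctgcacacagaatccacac
Sprr1b (chr3:92438780-92438899, minus strand): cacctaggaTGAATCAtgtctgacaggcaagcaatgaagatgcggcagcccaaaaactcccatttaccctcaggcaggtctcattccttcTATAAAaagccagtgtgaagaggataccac
Crnn (chr3:93144669-93144788, plus strand): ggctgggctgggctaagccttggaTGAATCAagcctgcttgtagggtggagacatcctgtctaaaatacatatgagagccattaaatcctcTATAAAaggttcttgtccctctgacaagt
Rptn (chr3:93393579-93393698, plus strand): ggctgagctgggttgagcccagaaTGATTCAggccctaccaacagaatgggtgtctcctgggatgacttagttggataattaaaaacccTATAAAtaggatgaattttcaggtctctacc
Lce1m (chr3:93019062-93019181, minus strand): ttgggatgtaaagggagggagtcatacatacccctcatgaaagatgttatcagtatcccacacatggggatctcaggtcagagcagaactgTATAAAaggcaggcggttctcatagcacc
Lce1g (chr3:92752339-92752458, minus strand): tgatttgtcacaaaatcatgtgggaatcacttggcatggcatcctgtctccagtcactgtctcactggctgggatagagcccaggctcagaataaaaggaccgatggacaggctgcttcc
In the loricrin promoter the AP-1 letters begin 48 bases and the TATA letters 27 bases before the start. In the promoters of Crnn and Rptn, both of the fused S100 class, the AP-1 letters begin 96 bases before the start in both. Lce1m and Lce1g differ here in that the first has TATAAA 29 bases before its start and the second has neither set of letters in the printed stretch. The other Lce gene with TATAAA between 40 and 15 bases before the start, Lce1d, stood at only 32.6 FPKM in the adult. A match of letters is a description of the sequence and shows no binding.

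**Figure D3:**
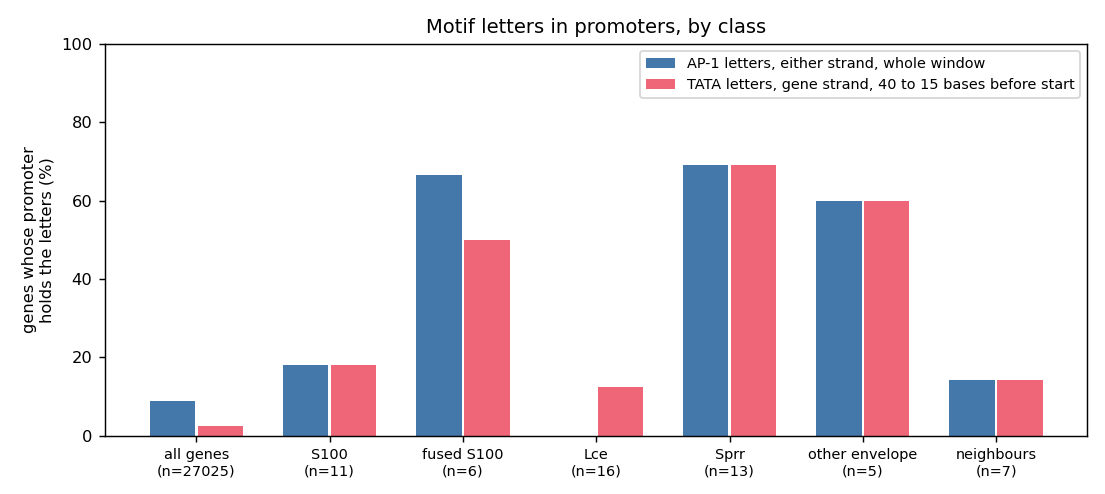
Share of genes, in percent, whose 300-base promoter window holds the AP-1 letters (either strand, anywhere) or the TATA letters (gene strand, 40 to 15 bases before the start), for all genes of the RefSeq table and for each class. The Lce class has no bar for AP-1, while Sprr, fused S100 and other envelope genes stand at 60% or more.

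Among the other envelope genes, loricrin dominated in the newborn only. It made up 62.1% of the class sum there, against 43.3% in the embryo and 39.7% in the adult. All 7 that were compared were higher in the newborn than in the embryo (median 1.66), and 5 of 7 were lower and 0 higher in the adult than in the newborn (median -2.81). Between embryo and adult 2 of 7 were higher and 1, Ivl, was lower (median 0.04), against 16.1% and 6.92% of all genes. Lor (chromosome 3, 91884193 to 91887064) had 641 FPKM in the embryo, 5378 in the newborn and 403 in the adult. It ranked 150th, 3rd and 248th among all genes with a value at the age in question. The newborn rank leaves out loci marked as having too many fragments, among them Krt1 and Krt10, which had 3688 and 4499 FPKM in the embryo. Its newborn FPKM was 8.40-fold the embryonic and 13.3-fold the adult one. Involucrin, Ivl (92374824 to 92377637), stood at 118, 326 and 43.8 FPKM, a smaller rise (2.76-fold) and an adult level below the embryonic one. The ratio of loricrin to involucrin FPKM was therefore 5.43, 16.5 and 9.20 at the 3 ages.

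Crct1, a cysteine-rich gene inside the Lce block, stood close to loricrin in the embryo and above it in the adult, with 640, 1825 and 462 FPKM. Kprp, a proline-rich keratinocyte protein, stood at 44.2, 325 and 45.4 FPKM, and Prr9, next to loricrin, at 30.4, 779 and 44.0 FPKM. Prr9 thus changed 25.6-fold between E18.5 and P3, in both directions further than its neighbour loricrin. Pglyrp3 and Pglyrp4, which bind bacterial peptidoglycan, kept much of their newborn level. They stood at 1.69, 6.40 and 5.42 FPKM and at 4.604, 16.8 and 12.8 FPKM, and were the 2 of 7 members of their class that were not lower at 10 weeks than at P3. Lelp1 and Smcp, the latter known from sperm, stayed below 1 FPKM.

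The Lce genes all had their highest level in the newborn and differed mainly in how much of it the adult kept. From E18.5 to P3, 16 of 17 were higher and 0 lower (median 1.57), and from P3 to 10 weeks all 17 were lower (median -3.51). Between E18.5 and 10 weeks 13 of 17 were lower and 0 higher (median -1.69), against 6.92% and 16.1% of all genes. Their summed FPKM was 3433, 9551 and 1455, a sum less sensitive than single genes to how reads shared among them were divided.

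Within the Lce1 group the rise was even and the later fall was not. Over the 12 Lce1 genes the ratio of P3 to E18.5 FPKM ran from 2.29 (Lce1m) to 5.81 (Lce1f), and the ratio of P3 to 10-week FPKM from 3.14 (Lce1m) to 187 (Lce1g). The highest and the lowest Lce1 gene were 9.35-fold apart at P3 and 489-fold apart at 10 weeks. Lce1m (92821729 to 92822982), which lies apart from the other Lce1 genes beyond the Lce3 genes, had the highest level at every age, with 1129, 2583 and 822 FPKM, and its newborn rise of 1.19 was 0.98 under upper-quartile scaling. Its share of the class sum was 32.9%, 27.0% and 56.5%. Lce1g (92554073 to 92556260) stood at 72.3, 314 and 1.68 FPKM, and its adult level was the lowest of the 12.

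Lce1a1 stood at 487, 1229 and 107 FPKM. Next along the row, Lce1b stood at 370, 884 and 114 FPKM, and Lce1a2 at 411, 1020 and 166 FPKM. Lce1c followed with 214, 694 and 85.4 FPKM. These 4 lie at one end of the Lce1 row, and Lce1d to Lce1i, farther along it, had 9.95 to 32.6 FPKM in the adult apart from Lce1g. Lce1f, of the largest rise, stood at 101, 587 and 22.2 FPKM. Lce1l was the exception on that side, with 53.5, 284 and 50.8 FPKM, and its adult level was close to its embryonic one. The rank order of the 12 genes at E18.5 and P3 was nearly the same (Spearman's rho 0.97) and was less alike between P3 and 10 weeks (rho 0.84), as a description over genes that share libraries and, in part, sequence.

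Lce1 genes resemble each other, and this limits single values. In GENCODE transcripts, a median of 21.97% of the 50-base windows of a Lce1 transcript occurred in transcripts of another gene, with 0% for Lce1m and 27.1% for Lce1i. Lce1g had 18.4% of its windows in common with others. The Lce3 genes, whose human counterparts are linked to barrier repair, were low. Lce3c stood at 4.66, 31.0 and 1.25 FPKM, and Lce3f at 1.09, 3.26 and listed at 0. These 2 had 35.7% and 48.0% of their windows in common with other genes, more than any Lce1 gene. For Lce3a and Lce3b it was 19% and 12.1%. The newborn rise of Lce3f, 1.03, was under 2-fold with either other scaling (0.96 and 0.90). Lce3a (0.179, 1.19 and listed at 0) and Lce3b (0.0189, 1.13 and listed at 0) barely passed 1 FPKM. Lce6a, at the other end of the block, followed the Lce1 course with 55.6, 243 and 15 FPKM.

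The Sprr genes split into members that the adult kept and members that it did not. From E18.5 to P3, 9 of 12 compared were higher and 2 lower (median 1.37), and from P3 to 10 weeks 8 of 12 were lower and 0 higher (median -1.53). Sprr1a (92287876 to 92289803), a cross-bridging protein also induced by injury, stood at 25.3, 650 and 190 FPKM. Sprr1b (92240731 to 92242701), its nearest relative in name, stood at 4.58, 61.2 and 0.201 FPKM. The ratio of Sprr1a to Sprr1b was 5.52, 10.6 and 945, and neither transcript shares a 50-base window with another gene. Sprr4 (92304185 to 92304415) stood at 11.5, 340 and 515 FPKM and was the only Sprr gene with its highest value in the adult, where its FPKM exceeded that of loricrin. The annotated Sprr4 transcript is 231 bases long, and the FPKM of so short a model depends strongly on the fragment length assumed.

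The Sprr2 genes were low in the embryo and newborn and near 0 in the adult, with a sum over 11 genes of 26.1, 64.4 and 1.53 FPKM. Sprr2h stood at 5.82, 37.5 and 0.221 FPKM and Sprr2d at 12.04, 15.2 and 0.253 FPKM. Sprr2e, Sprr2f and Sprr2g reached only 1.67, 1.28 and 3.20 FPKM, all in the newborn. Sprr2b (0.651 and 2.78 FPKM) and Sprr2i (0.00891 and 1.83 FPKM) were listed at 0 in the adult. Sprr2a1 and Sprr2a2 were the reverse, at 3.44 and 3.45 FPKM in the embryo, at 0.0211 FPKM (Sprr2a2) or listed at 0 in the newborn, and both listed at 0 in the adult. Over 96% of the windows of each of these transcripts (96.3% and 96.5%) occur in another gene, so that the level of either alone is uncertain. Sprr3, Sprr2k and Sprr2j-ps stayed below 1 FPKM.

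Between E18.5 and 10 weeks the Sprr class had 2 of 12 members higher and 5 lower, against 16.1% and 6.92% of all genes. The count of higher members was thus near the share over all genes. The median and the sum of the class differed in sign. The median was -0.39, whereas the summed FPKM of the 15 genes was 67.5, 1116 and 706. Without Sprr4 the sum was 56.0, 776 and 191 FPKM.

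**Figure D4:**
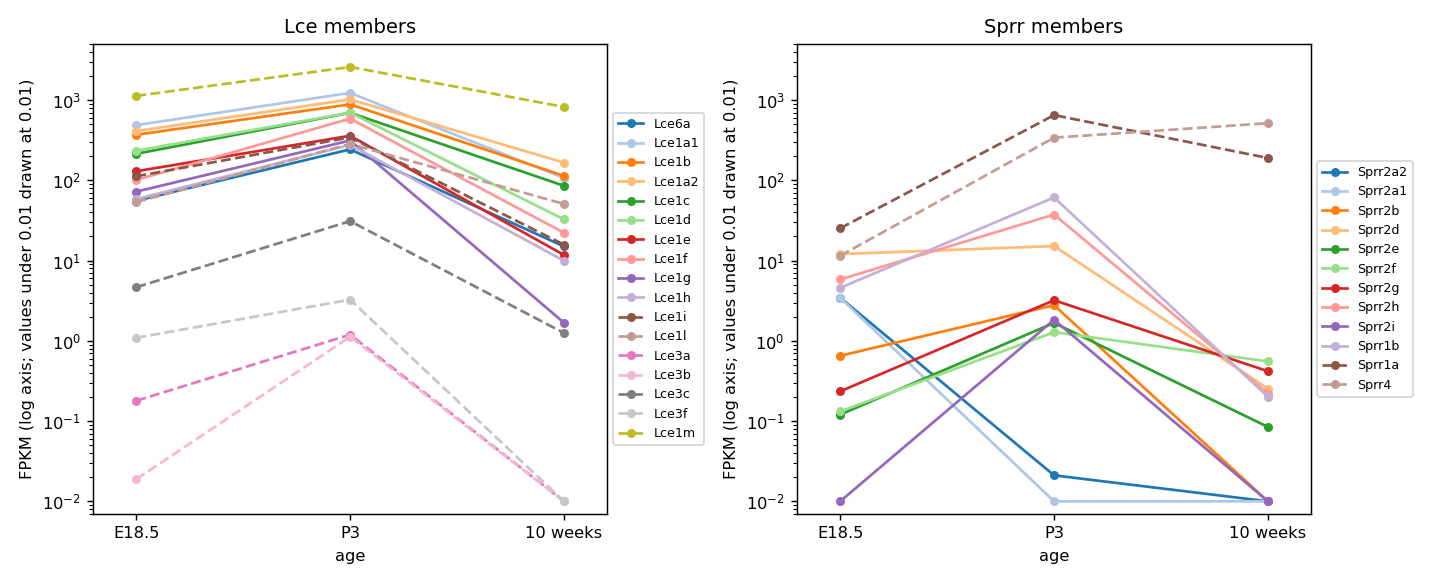
FPKM on a log axis at the 3 ages for the 17 Lce genes (left) and the 12 Sprr genes that reached 1 FPKM (right), 1 line per gene. All Lce lines peak at P3 and fan out in the adult, between Lce1m at 822 FPKM and genes listed at 0, and in the right panel Sprr1a and Sprr4 stay high in the adult, at 190 and 515 FPKM, while the other Sprr genes are below 1.

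The fused S100 genes with usable values had the largest class median after birth. Crnn (cornulin) stood at 4.03, 120 and 6.04 FPKM. Rptn (repetin) stood at 2.15, 48.3 and 6.64 FPKM. Tchhl1, a trichohyalin-like gene, stood at 0.674, 46.6 and 4.54 FPKM. All 3 were higher in the newborn than in the embryo (median 4.59) and all 3 were lower again at 10 weeks (median -3.10). Trichohyalin, Tchh, which hardens the inner root sheath of the hair follicle, had 15.98 FPKM in the embryo and 26.1 in the adult. Filaggrin-2, Flg2, stood at 125 and 103 FPKM at the same ages, a difference of -0.27. Hornerin, Hrnr, had a usable value only at 10 weeks, 4.95 FPKM. With Flg2, Hrnr and Tchh missing at P3, this class is described in the newborn by 3 of its 6 members.

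Ten-week levels of Rptn and Tchhl1 were above their E18.5 levels by 1.28 and 1.73, and that of Crnn by 0.49. With a pseudocount of 5 the first 2 values were 0.70 and 0.75, under 2-fold. A threshold of 3 on the log2(FPKM + 1) scale, called 8-fold, was passed between E18.5 and P3 by 10 members of the region, against 1.04% of all genes compared. These were S100a3, Tchhl1, Sprr4, Prr9, Sprr1a, Crnn, Rptn, S100a7a, Sprr1b and Lor, and they lie in 4 classes, with none among the Lce genes. Low members such as Lce3b and Sprr2i passed 8-fold in plain FPKM only.

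The S100 genes did not share 1 course. At P3, 5 of 12 were higher than at E18.5 and 1 lower (median 0.47), and at 10 weeks 5 of 12 were higher than at P3 and 4 lower (median 0.39). Between embryo and adult 4 of 12 were higher and 0 lower (median 0.66), against 16.1% and 6.92% of all genes. Their summed FPKM was 2237, 4054 and 4161, so that the class made up 29.9%, 16.7% and 54.5% of the members' sum. S100a3 (90404137 to 90406624), a protein of the hair cuticle, stood at 18.1, 624 and 36.2 FPKM. Its next neighbour S100a4 (90407692 to 90409967), known from fibroblasts and macrophages, stood at 54.7, 73.6 and 650 FPKM. S100a3 thus exceeded S100a4 by 8.47-fold at P3 and was 17.97-fold below it in the adult. In GENCODE, 14.6% of the windows of S100a3 and 56.3% of those of S100a4 occur in another gene, in both cases most often Gm42674.

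S100a6, an annexin-binding S100 protein, stood at 188, 503 and 942 FPKM, with differences of 1.41 and 0.90, of which the second is under 2-fold. S100a14, an epithelial S100 protein, followed the envelope genes more closely, with 346, 854 and 244 FPKM, and so did S100a16, with 214, 484 and 225 FPKM. S100a7a, of the psoriasin family, stood at 1.46, 31.0 and 2.36 FPKM. S100a11 and S100a10, which also bind annexins, lie beyond the fused S100 block. S100a11 stood at 690, 990 and 887 FPKM, and S100a10 at 564, 368 and 781 FPKM, of which the step from P3 to 10 weeks (1.08) passed 2-fold as deposited and was 0.98 under median-of-ratios scaling. Both thus kept a high level at every age. S100a13 stood at 52.5, 25.4 and 110 FPKM, and S100a1, a calcium sensor of muscle, at 73.9, 62.9 and 135 FPKM.

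S100a8 and S100a9, whose products pair as calprotectin in neutrophils and stressed keratinocytes, did not move together. S100a8 (90472993 to 90473956) stood at 20.1, 24.4 and 135 FPKM and S100a9 (90496555 to 90499613) at 14.6, 14.6 and 13.3 FPKM. From P3 to 10 weeks S100a8 differed by 2.42 and S100a9 by -0.13. The ratio of S100a8 to S100a9 was 1.38, 1.68 and 10.2, and neither transcript shares a 50-base window with another gene. S100a2 and S100a5 stayed below 1 FPKM.

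**Figure D5:**
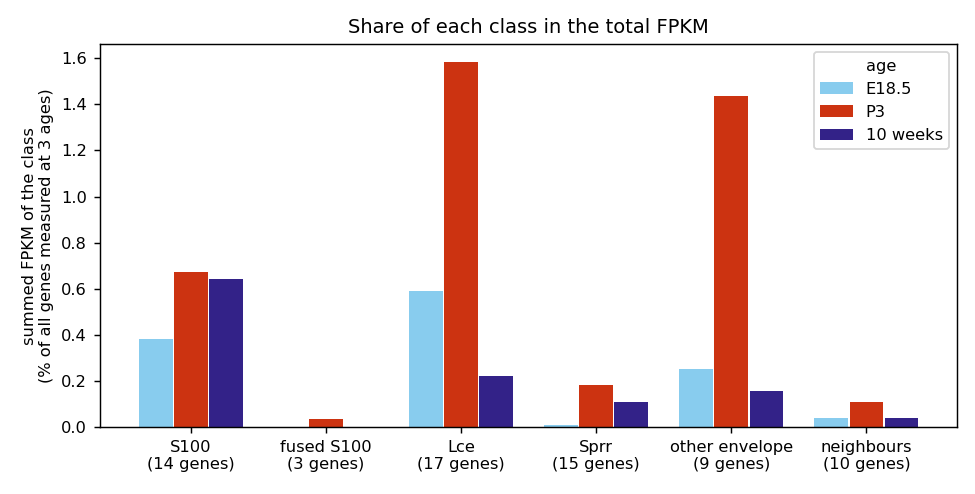
Summed FPKM of each class as a percent of the summed FPKM of all genes measured at the 3 ages, 1 bar per age, over the number of genes given under each class. The Lce bar goes from 0.590% to 1.58% and 0.224%, the other envelope bar from 0.254% to 1.43% and 0.157%, and the S100 bar from 0.385% to 0.672% and 0.641%.

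At the proximal end of the region, the neighbours of other kinds had no 2-fold rise in the newborn. Of the 5 neighbours in the whole region that reached 1 FPKM, 1 was higher and 1 lower at P3 than before birth (median 0.06). Again 1 was higher and 1 lower in the adult than in the newborn (median -0.05). Among all genes, 9.56% were higher and 9.42% lower in the first step, and 19.8% and 9.98% in the second. Counts over 5 genes are too small to set against these shares. Ilf2, an RNA-binding protein, stood at 51.0, 49.3 and 32.0 FPKM. Snapin, of the vesicle fusion machinery, stood at 23.9, 24.9 and 45.1 FPKM. The mRNA export factor Chtop, listed as 2500003M10Rik, stood at 46.5, 52.8 and 50.8 FPKM. These 3 differed by less than 2-fold between all ages, and they lie directly before S100a1. Ilf2 and Snapin share 1 listed span (90280123 to 90294935), so reads of one may have been counted for the other. Npr1, a natriuretic peptide receptor, stood at 8.62, 3.06 and 22.5 FPKM. The uncharacterised gene 2310050C09Rik (92672281 to 92674127), which lies between Lce1l and Lce3a and is counted as a neighbour because its symbol names no family, stood at 114, 531 and 124 FPKM. With it the neighbours' sum was 245, 661 and 274 FPKM, and without it 131, 131 and 151 FPKM. Gm4858, 4930529C04Rik and 9130204L05Rik stayed below 1 FPKM, and Tdpoz1 and Tdpoz2 were listed at 0 at every age. RefSeq names 9130204L05Rik as S100a7l2, an S100 name, but it is counted here because classes went by the listed symbol.

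The members share gene structure as well as place. In GENCODE, 16 of 17 Lce transcripts have 2 exons, as do 13 of 15 Sprr and 7 of 9 other envelope transcripts, whereas 11 of 14 S100 transcripts have 3. The median coding length was 417 bases for Lce, 249 for Sprr and 303 for S100 genes, and 4076 bases for the fused S100 genes, which ranged up to 10233 bases (Hrnr).

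Genes of the cornified envelope outside the complex took the same direction. Of 31 listed envelope, cross-linking and processing genes, 28 could be compared between E18.5 and P3, and 27 were higher and 0 lower (median 1.91). From P3 to 10 weeks 24 of 28 were lower and 0 higher (median -2.01). Over all genes compared, 9.56% were higher and 9.42% lower in the first step, and 19.8% and 9.98% in the second. The compared genes that were not lower at 10 weeks than at P3 were Tgm5, Cst6, Sbsn and Spink5. Their differences in that step were -0.76, 0.49, -0.89 and -0.53. Tgm5 stood at 6.48, 16.6 and 9.35 FPKM, and Cst6 at 10.1, 112 and 158 FPKM. Among the genes that were lower, the cross-linking enzymes Tgm1 and Tgm3 stood at 18.1, 89.7 and 13.1 FPKM and at 12.9, 46.4 and 0.508 FPKM. Padi3, a deiminase that modifies trichohyalin and S100A3, stood at 3.11, 69.3 and 2.94 FPKM, and Casp14 at 66.8, 286 and 8.39 FPKM.

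Of 26 listed regulators that are known to act on genes of the complex, 25 could be compared, of which 15 were higher and 0 lower in the newborn than in the embryo (median 1.15). From P3 to 10 weeks 8 were lower and 4 higher (median -0.52). The shares over all genes were 9.56% higher and 9.42% lower in the first step, and 19.8% and 9.98% in the second. The 4 of 25 regulators that were higher in the adult are thus near the share over all genes. The AP-1 genes Junb and Jun did not share the adult fall, with 17.8, 87.9 and 242 FPKM and 24.8, 59.0 and 146 FPKM. Jund, at 33.8, 76.3 and 119 FPKM, did not either. Another AP-1 gene, Fosl2, stood at 26.1, 46.1 and 27.9 FPKM, and its difference from newborn to adult, -0.70, was under 2-fold. Fosl1 stayed below 1 FPKM. Grhl3, a grainyhead factor, stood at 9.88, 40.8 and 10.1 FPKM, Ovol1 at 13.1, 45.5 and 12.9 FPKM, and Klf4 at 57.3, 245 and 173 FPKM. These lists were chosen with results of these data known and are not independent support.

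Basal keratinocyte markers were in part higher in the newborn too. The summed FPKM of 6 basal keratinocyte markers (Krt5, Krt14, Col17a1, Itga6, Itgb4 and Trp63), all present at every age, with Trp63 also among the regulators, was 2121, 5311 and 1633, and 4 of 6 were higher at P3 (median 1.34). From P3 to 10 weeks 2 of 6, Krt5 and Krt14, were lower (median -0.70), and these 2 make up most of the sum. Over all genes, 9.56% were higher from E18.5 to P3 and 9.98% lower from P3 to 10 weeks. Col17a1 and Itgb4 differed by -0.18 and -0.09 in that step and were above their embryonic levels in the adult by 1.36 and 1.35. Divided by this sum, the Lce class stood at 1.62, 1.80 and 0.891, and the other envelope class at 0.697, 1.63 and 0.623. The Sprr class stood at 0.0318, 0.210 and 0.433, and the S100 class at 1.05, 0.763 and 2.55. On this scale the newborn rise of the Lce class was small, while that of loricrin remained, at 0.302, 1.01 and 0.247. The part of epidermal content in the members' differences was not tested.

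Markers of other cell types went the same way as single members in some steps only. All 8 markers of hair shaft and inner root sheath were higher at P3 and lower at 10 weeks, with a sum of 213, 4374 and 237 FPKM, a course that most envelope members shared, among them Lor, Crnn and the Lce genes, as did the hair cuticle gene S100a3. Between embryo and adult 1 of the 8 was higher and 0 lower (median 0.23), against 16.1% and 6.92% of all genes. All 8 macrophage markers were higher at 10 weeks than at P3, with a sum of 231, 91.9 and 2321 FPKM. So were 3 of 6 fibroblast markers, with 3168, 1159 and 3621 FPKM, beside the adult levels of S100a4 and S100a6. Over all genes, 19.8% were higher in that step. From E18.5 to P3 both sums fell, whereas S100a4 (54.7 to 73.6 FPKM) and S100a6 (188 to 503 FPKM) did not. Skeletal muscle markers summed to 4474, 378 and 22335 FPKM, with 8 of 8 higher in the adult, beside S100a1 at 73.9, 62.9 and 134.5 FPKM. Adipocyte markers summed to 4101, 1453 and 5768 FPKM, and melanocyte and Schwann cell markers to 101, 245 and 144 FPKM. Of 10 neutrophil markers 9 were matched. Their sum was 27.7, 7.32 and 19.7 FPKM, beside S100a8 at 20.1, 24.4 and 135 FPKM. Of the 6 that reached 1 FPKM, 3 were higher at 10 weeks than at P3, namely Mmp9 (0.234 to 11.99 FPKM), Csf3r (0.262 to 2.49 FPKM) and Ltf (0.263 to 1.54 FPKM), and 1, Camp, was lower (2.67 to 0.663 FPKM). Mpo and Elane, which define early neutrophils, had at most 0.137 and 0.500 FPKM at any age, and Ngp was listed at 0 in the adult. The part of these cell types in the members' values was not tested.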

How the data were processed

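RNA sequencing of FVB mouse skin was used at E18.5, P3 and 10 weeks, with 1 table per age. The deposited values are averaged FPKM, per the file headers. TopHat2 2.0.7, Cufflinks 2.1.1 and build mm9 are named in the submitters' processing notes. Which annotation was counted, whether strand was used and how multiply matching reads were split is not given in the sources used here, and depth is unknown. Zeros marked FAIL or HIDATA in the status column were treated as missing.

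Members were found by position, with 1 added to each listed start. Differences are on log2(FPKM + 1) for genes that reach 1 FPKM at some age, computed with Python 3.11.15, pandas 2.3.3 and numpy 2.4.6, and the calls were tested on simulated data with 200 changed genes. With 1 value per age there was no test. Class sums use members measured at all ages. Promoters come from RefSeq (GRCm38.p6) and transcript structure and shared 50-base windows from GENCODE M21 transcripts. Those tables are of another build and gave no mm9 coordinates. Named genes are every fused S100 gene, Lor and Ivl, in each other class the 4 most abundant and the 3 of largest difference in each comparison, and members listed at 0 at some age. Others are given for completeness. Alternatives were pseudocounts of 0.1 and 5, a minimum of 5 FPKM or none, scaling by the median of ratios or the upper quartile, leaving out marked values above 0, and class sums. The members and lists were chosen with earlier results of these data known.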

Additional observations from a re-analysis of the deposited data

How the results depend on the processing

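With 1 value per gene and age, no spread, interval or replicate left out could be used. No paired analysis was possible because the tables hold no replicate columns. Under the 7 alternatives, the number of members higher in the newborn than in the embryo, and both numbers from P3 to 10 weeks, moved by no more than 1.5 times. The number lower at P3 was 2 with a minimum of 5 FPKM and 0 with a pseudocount of 5, against 4, and the number higher at 10 weeks than at E18.5 was 6 with a pseudocount of 5, against 11. The Sprr median depended on the setting. With a pseudocount of 5 it was 0.45 for newborn against embryo and -0.52 for adult against newborn, and the class sum gave -0.66 in the latter. A pseudocount of 0.1 gave 2.84 and -2.97 for these steps, and a minimum of 5 FPKM 3.48 and -3.69. From E18.5 to 10 weeks it was -1.58 with a pseudocount of 0.1 and -2.22 with a minimum of 5 FPKM, while the class sum gave 3.37, and 1.76 without Sprr4, a setting chosen after seeing the data. The fused S100 sum gave 1.22 from E18.5 to 10 weeks over 3 genes. The neighbours' sum gave 1.43 and -1.27 for the first 2 steps, with 2310050C09Rik in it. Of the values of named members under alternatives, 909 stayed on their side of 2-fold, 26 fell below it, 22 of these with a pseudocount of 5, and 3 passed it. Those lost with a pseudocount of 5 were calls of low genes, in at least 1 comparison each: Npr1, Pglyrp3, Pglyrp4, Rptn, Tchhl1, Sprr1b, Sprr2a1, Sprr2a2, Sprr2b, Sprr2i, Lce3a, Lce3b, Lce3c and Lce3f. Lce1m at P3 was at 0.98 with the upper quartile, S100a10 at 10 weeks at 0.98 with the median of ratios. Scaling by the median of ratios shifted every log2 ratio by -0.12 (newborn over embryo), -0.10 (adult over newborn) and -0.22 (adult over embryo), and the upper quartile by -0.22, -0.08 and -0.30.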

Other observations

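In GENCODE, 11 of 12 Lce1 genes lie on the minus strand, whereas all 11 Sprr2 genes and all 6 fused S100 genes lie on the plus strand. The wider classes were mixed, with 4 Lce genes on the plus and 13 on the minus strand, and 11 and 4 Sprr genes. On the log2(FPKM + 1) scale, 10 members were over 8-fold higher in the newborn than in the embryo. Of these, 5 were within 2-fold of their embryonic level in the adult on that scale. The 5 were S100a3, Prr9, Crnn, S100a7a and Lor, chosen after their values were seen. Their differences between embryo and adult were 0.96, 0.52, 0.49, 0.45 and -0.67.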
